A study of Mus musculus with 6 samples.

Results

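The genes that write and read 5-methylcytosine (m5C) in RNA were examined in GC-2spd cells, an immortalized line made from mouse spermatocytes. They were chosen by name as 9 of the 43412 annotated genes of the deposited tables. The group holds 6 methyltransferases of the NOL1/NOP2/SUN family (Nsun2, Nsun3, Nsun4, Nsun5, Nsun6 and Nsun7), the methyltransferase Trdmt1 and the m5C-binding proteins Alyref and Ybx1. Each gene was measured in 6 poly(A) RNA libraries of the same line, labelled as of C57BL/6J background and testis origin. Of these, 3 came from normoxic cells (21% O2) and 3 from hypoxia-treated cells (1% O2), both with 5% CO2. Neither the labels nor the study's methods for the transcriptome restate the length of the exposure that the study gives for its hypoxia model, and no source ties each library to a culture of its own. The p-values therefore measure the spread between these libraries, which may be technical. In such bulk RNA, fewer cells that use a gene and less of its RNA per cell cannot be told apart.

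In m5C, a methyl group taken from S-adenosylmethionine (SAM) is placed on the cytosine ring. NSUN2 and TRDMT1 modify cytosolic tRNAs, NSUN6 modifies tRNAs and mRNAs, NSUN3 acts on mitochondrial tRNA-Met, NSUN4 on mitochondrial ribosomal RNA, and NSUN5 on cytosolic ribosomal RNA. ALYREF carries mRNA out of the nucleus and YBX1 binds and stabilizes mRNA, and both are known to recognize m5C. In mice, loss of Nsun2 blocks spermatogenesis, and a truncated Nsun7 leaves sperm poorly motile.

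The enzymes attack the cytosine with a cysteine, and the coding stretch around it is shown for the 7 enzymes because this site is what makes them one functional group, although their mRNAs moved differently. Each stretch holds 45 coding bases of a GENCODE mouse release 21 transcript (GRCm38), read on the strand of the gene, with the codon of the catalytic cysteine in capitals.
Nsun2: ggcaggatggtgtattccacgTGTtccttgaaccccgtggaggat
Nsun3: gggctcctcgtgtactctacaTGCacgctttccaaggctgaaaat
Nsun4: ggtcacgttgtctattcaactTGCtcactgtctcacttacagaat
Nsun5: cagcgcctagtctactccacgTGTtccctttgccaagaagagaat
Nsun6: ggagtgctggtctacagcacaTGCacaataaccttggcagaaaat
Nsun7: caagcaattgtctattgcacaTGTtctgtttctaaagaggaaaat
Trdmt1: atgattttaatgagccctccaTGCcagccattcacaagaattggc
The codon was TGT in Nsun2, Nsun5 and Nsun7 and TGC in Nsun3, Nsun4, Nsun6 and Trdmt1. It lay in exon 9 of Nsun2 (chr13:69623233-69623235, residue 321 of 757), exon 6 of Nsun4 (chr4:116034260-116034262, residue 307 of 381) and exon 10 of Nsun6 (chr2:14998245-14998247, residue 373 of 476). In Trdmt1, whose cysteine stands in the PPCQ motif of DNA methyltransferases, it lay in exon 3 (chr2:13525632-13525634, residue 79 of 415).

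RNA levels are given as TPM, a transcript abundance scaled for transcript length and for the total of the library, so that genes can be compared within a library. A gene was called higher or lower in hypoxia-treated cells when the Benjamini-Hochberg adjusted p of limma, fitted to log2(TPM + 1) of all 13749 genes with a mean of at least 1 TPM, was under 0.05. The fold changes are on that log2(TPM + 1) scale, which understates the change of genes at a few TPM. Among all tested genes 36.1% were called lower and 17.9% higher, and the median log2 fold change was −0.13.

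The libraries held 5.75 to 6.72 aligned gigabases each. The files give no read counts, so that counting errors could not be calculated. The germ cell label was not borne out by its markers, since 0 of 7 germ cell genes and 0 of 6 spermatid genes reached 1 TPM, with Sycp1, Stra8, Acr, Prm2 and Tnp1 listed at 0 in every library. Of 6 mesenchymal markers, 5 reached 1 TPM, and their summed level was 3280 to 4240 TPM in normoxic and 6830 to 7050 TPM in hypoxia-treated cells. Of these 5, Vim (1601 ± 507 to 4053 ± 102 TPM) and Col1a1 (1161 ± 53.8 to 1720 ± 48.0 TPM; SD, n = 3 each) were called higher and make up most of the difference in the sum. Pdgfrb was called lower (6.63 ± 0.207 to 1.45 ± 0.185 TPM; SD, n = 3 each), and Col1a2 and Col3a1 were not called. Markers of Leydig cells (2 of 4 reaching 1 TPM) summed to 3.21 to 5.7 TPM in normoxic and 7.14 to 10.5 TPM in hypoxia-treated cells, and those of macrophages (2 of 4, with Ptprc and Adgre1 at 0) to 7.2 to 8.11 and 10.5 to 11.5 TPM. Of the Leydig markers, only Insl3 was called higher (2.65 ± 1.39 to 7.365 ± 1.57 TPM), and Star was not called (1.37 ± 0.237 to 1.10 ± 0.296 TPM). Of the macrophage markers, only Cd68 was called higher (6.41 ± 0.689 to 9.41 ± 0.932 TPM), and Csf1r was not called (1.10 ± 0.167 to 1.48 ± 0.379 TPM; SD, n = 3 each). The sums for Sertoli cells (2 of 5, 38.6 to 50.6 and 41.1 to 53.1 TPM) and endothelial cells (1 of 3, 0.85 to 2.03 and 0.178 to 1.15 TPM) overlapped between the groups. The largest Sertoli marker, Gata4, was not called (39.9 ± 7.38 to 33.8 ± 5.99 TPM). Sox9 was called higher (6.41 ± 0.533 to 13.3 ± 0.395 TPM; SD, n = 3 each). Wt1 (means 0.0616 and 0.751 TPM) and Amh (0.261 and 0.169 TPM) were not tested, and Fshr was at 0. The part of these marker levels in the results was not tested.

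Of the 9 genes, 8 passed the filter on low values. Nsun2 and Nsun6 were called higher, Nsun4, Nsun3 and Trdmt1 were called lower, and Nsun5, Alyref and Ybx1 were not called. Thus 3 of 8 were lower and 2 of 8 higher, against the 36.1% and 17.9% of all tested genes. The median log2 fold change of the 8 genes was −0.18. The calls of Nsun2, Nsun4 and Nsun6 held in all 15 alternative analyses, whereas those of Nsun3 and Trdmt1 were lost in 9 of the 15 each.

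**Figure D1:**
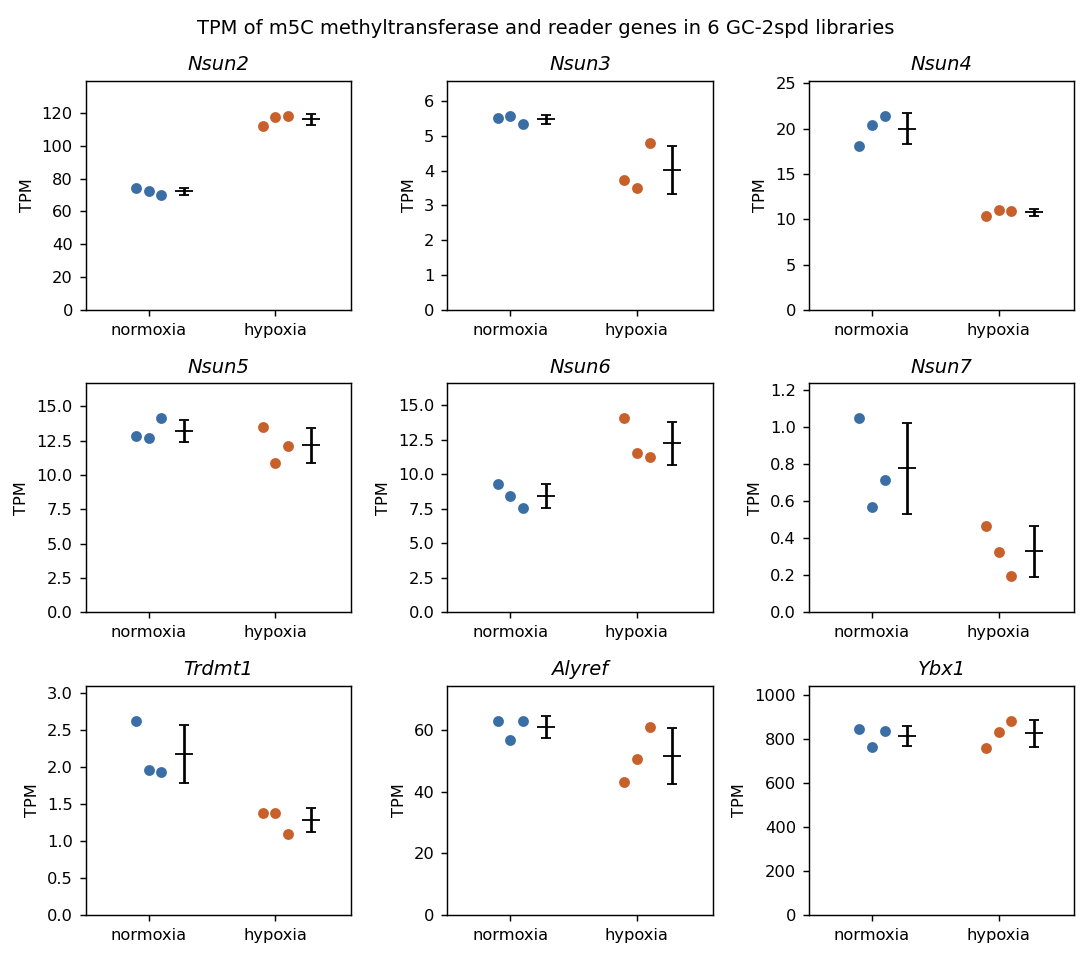
TPM (vertical axis, starting at 0) of the 9 genes in the 3 normoxic and 3 hypoxia-treated libraries, with 1 point per library and the mean ± SD beside each group. The groups are separate for Nsun2, Nsun6, Nsun3, Nsun4, Nsun7 and Trdmt1, and they overlap for Nsun5, Alyref and Ybx1.

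Nsun2, the major tRNA m5C methyltransferase of the cytosol and nucleus, was the most abundant of the 7 enzymes examined, which leave out Nop2 (chr13:69533746-69635780, plus strand). It measured 74.4, 72.5 and 70.2 TPM in the normoxic libraries and 112.2, 117.6 and 118.1 TPM in the hypoxia-treated ones. All hypoxia-treated libraries lay above all normoxic ones, and the libraries of a group lay close together. The mean went from 72.4 ± 2.15 to 116.0 ± 3.29 TPM (SD, n = 3 each), a ratio of 1.6. The log2 fold change was 0.67 ± 0.045 (SE), with an adjusted p of 4.8e-05 (limma). The gene shares bases with 4 genes on the opposite strand, and no source states that the libraries kept strand. In normoxic and hypoxia-treated cells, respectively, Tent4a stood at 29.1 and 29.2 TPM, Srd5a1 at 15.4 and 12.8 TPM, Gm17108 at 3.65 and 3.70 TPM and A530095I07Rik at 1.61 and 0.825 TPM. Whether reads of these genes entered the value of Nsun2 was not tested.

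Nsun6, which methylates tRNA-Cys and tRNA-Thr as well as mRNAs, was also higher (chr2:14995131-15055069, minus strand). It measured 9.33, 8.44 and 7.599 TPM in normoxic and 14.1, 11.5 and 11.2 TPM in hypoxia-treated libraries. The groups did not overlap, and hypoxia replicate 1 was the highest. The mean went from 8.46 ± 0.865 to 12.3 ± 1.55 TPM (SD, n = 3 each), with a log2 fold change of 0.49 ± 0.114 (SE) and an adjusted p of 0.0101 (limma). Arl5b, a small GTPase gene that overlaps Nsun6 on the opposite strand, stood at 16.2 TPM in normoxic and 21.2 TPM in hypoxia-treated cells. Whether reads of Arl5b entered the value of Nsun6 was not tested.

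The start of transcription was read from the loci that the authors' assembler built from the reads, which place it only as far as the assembly does. The largest assembled locus at Nsun2 began at position 69612016 of chromosome 13 in all 6 libraries, the same base as the RefSeq start site. The largest assembled locus at Nsun6 began at position 15049312 of chromosome 2, which is one of its RefSeq start sites, in 5 of 6 libraries, the exception being normoxia replicate 3. A further small locus of 0.088 TPM spanned the other RefSeq start in hypoxia replicate 1 (chr2:15054632-15055069), so that some use of that start is not excluded. The promoters of these genes, the members called higher, are shown from RefSeq (GRCm38.p6). The Nsun2 stretch is the 250 bases before the start (chr13:69611766-69612015, plus strand), and the Nsun6 stretch is the 82 bases before the start that no annotated UTR covers (chr2:15049313-15049394, minus strand). Capitals mark ACGTG or GCGTG, the core letters of the hypoxia response element, on either strand.
Nsun2 promoter: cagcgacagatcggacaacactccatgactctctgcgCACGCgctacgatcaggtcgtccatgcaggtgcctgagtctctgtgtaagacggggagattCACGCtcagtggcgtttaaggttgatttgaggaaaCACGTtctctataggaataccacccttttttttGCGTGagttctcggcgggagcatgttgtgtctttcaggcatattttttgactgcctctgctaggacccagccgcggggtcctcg
Nsun6 promoter: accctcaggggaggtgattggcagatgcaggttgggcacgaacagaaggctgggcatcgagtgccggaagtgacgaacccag
In the window from 250 bases before to 50 bases after the start, Nsun2 held 6 of these motifs, 4 of them in the stretch shown and 2, which share 1 base, after the start. At least 1 was present in 43.8% of 32851 RefSeq promoters of the same length, and at least 6 in 0.694%. The cutoff of 6 was set to the count in Nsun2, the highest of the member windows. The share of 0.694% is therefore a description and no test. The Nsun6 window at the start of the largest locus held 0, and the window at its other RefSeq start held 3. CACGTG, the E-box, which contains ACGTG, was found in 7.15% of all promoters and in none of the windows of the 8 members with a RefSeq entry. Of the members called lower, Nsun4 held 2 and 0 at its 2 starts, Nsun3 held 0 and Trdmt1 held 1. Alyref and Ybx1 held 1 each, and Nsun7 held 0. A match of letters is a description of the sequence and shows no binding.

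Nsun4 had the smallest adjusted p of the members called lower (chr4:116032842-116053876, minus strand). Its protein methylates the small-subunit rRNA of mitochondria and, with MTERF4, takes part in assembly of the mitochondrial ribosome. Nsun4 measured 18.1, 20.5 and 21.4 TPM in normoxic and 10.4, 11.0 and 11.0 TPM in hypoxia-treated libraries. The groups were far apart, and the hypoxia-treated libraries were nearly equal. The mean fell from 19.99 ± 1.71 to 10.8 ± 0.352 TPM (SD, n = 3 each), a ratio of 0.539, with a log2 fold change of −0.83 ± 0.081 (SE) and an adjusted p of 0.000217 (limma). Its partner Mterf4 was not called, with 14.8 ± 0.158 TPM in normoxic and 15.7 ± 1.68 TPM in hypoxia-treated cells (SD, n = 3 each) and an adjusted p of 0.503 (limma).

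Nsun3, whose product methylates the wobble cytosine of mitochondrial tRNA-Met, was called lower (chr16:62732444-62786818, minus strand). It measured 5.50, 5.57 and 5.34 TPM in normoxic and 3.72, 3.51 and 4.80 TPM in hypoxia-treated libraries. Hypoxia replicate 3 lay nearest to the normoxic libraries. The log2 fold change was −0.38 ± 0.122 (SE), with an adjusted p of 0.0356 (limma). Without hypoxia replicate 3 it was −0.49 with an adjusted p of 0.0109, and without any other single library the adjusted p was 0.0744 to 0.103. Alkbh1, which oxidizes the methyl group placed by NSUN3, was at 5.72 ± 0.971 TPM in normoxic and 5.44 ± 1.20 TPM in hypoxia-treated cells (SD, n = 3 each) and was not called (adjusted p = 0.759, limma).

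Trdmt1, also known as Dnmt2, modifies tRNA-Asp, tRNA-Gly and tRNA-Val, and its mRNA was low (chr2:13509014-13544668, minus strand). It measured 2.62, 1.97 and 1.93 TPM in normoxic and 1.38, 1.38 and 1.10 TPM in hypoxia-treated libraries. The groups did not overlap, and normoxia replicate 1 was the highest. The log2 fold change was −0.47 ± 0.15 (SE), with an adjusted p of 0.0348 (limma). The adjusted p lay between 0.0547 and 0.106 when any single library was left out, the largest without normoxia replicate 1.

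Nsun5, which modifies the large cytosolic rRNA, differed by less than its spread (chr5:135369953-135376805, plus strand). It measured 12.8, 12.7 and 14.1 TPM in normoxic and 13.5, 10.9 and 12.1 TPM in hypoxia-treated libraries, which overlapped. The log2 fold change was −0.12, with a 95% interval from −0.34 to 0.11 and an adjusted p of 0.336 (limma). The nuclear pore gene Pom121 overlaps it on the opposite strand and stood at 29.6 and 28.2 TPM in normoxic and hypoxia-treated cells. Nsun7 (chr5:66259897-66298026, plus strand) stayed below the filter and was not tested. It measured 1.05, 0.570 and 0.717 TPM in normoxic and 0.468, 0.327 and 0.196 TPM in hypoxia-treated libraries, with a mean read depth over the gene of 0.446 to 2.79, and each hypoxia-treated library lay below each normoxic one. Without the filter on low values its log2 fold change was −0.42 ± 0.128 (SE), with an adjusted p of 0.0631 (limma).

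The readers were more abundant than most of the writers and neither was called. Alyref (chr11:120592121-120598365, minus strand) measured 62.9, 56.8 and 63.0 TPM in normoxic and 43.1, 50.8 and 61.0 TPM in hypoxia-treated libraries. The hypoxia-treated libraries were scattered, and hypoxia replicate 3 fell among the normoxic ones. The log2 fold change was −0.25, with a 95% interval from −0.54 to 0.04 and an adjusted p of 0.131 (limma). Without hypoxia replicate 3, Alyref was called lower, at −0.37 with an adjusted p of 0.018. Ybx1 (chr4:119277981-119294604, minus strand) measured 848.4, 763.4 and 836.3 TPM in normoxic and 760.7, 835.1 and 883.9 TPM in hypoxia-treated libraries. These values overlapped fully, and the log2 fold change was 0.02 with a 95% interval from −0.14 to 0.18 (adjusted p = 0.844, limma). The sign of Ybx1 depended on the scaling, with 0.16 (adjusted p = 0.0384) after median-ratio scaling of the libraries and −0.16 (adjusted p = 0.0611) after quantile normalization.

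**Figure D2:**
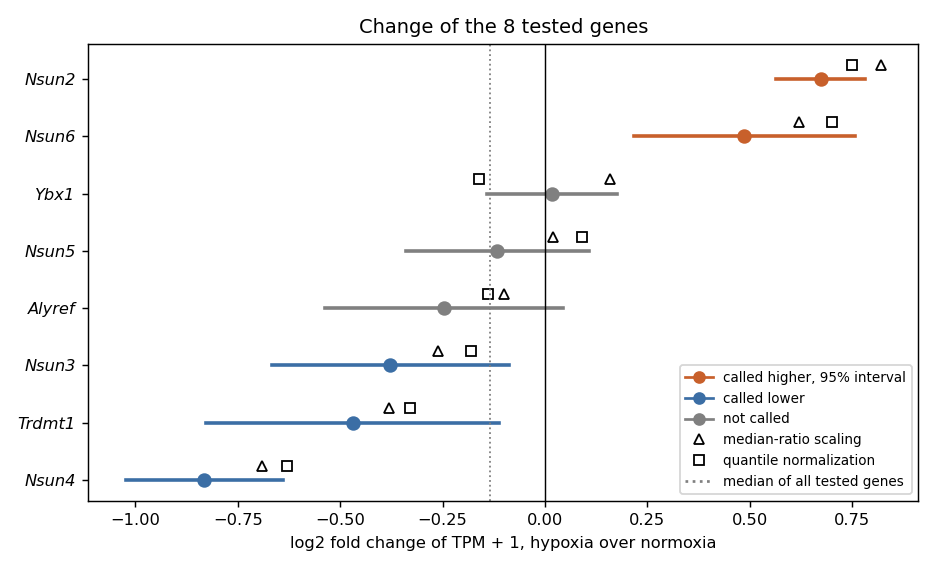
Log2 fold change of TPM + 1 (horizontal axis, hypoxia over normoxia) of the 8 tested genes, with the limma estimate as a point and its 95% interval as a line. Triangles and squares give the estimate after median-ratio scaling and quantile normalization, and the dotted line is the median of all tested genes, −0.13. Nsun2 and Nsun6 stay above 0 and Nsun3, Nsun4 and Trdmt1 below 0 under all 3 scalings, whereas Ybx1 and Nsun5 change sign.

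The order of the mRNA levels was Ybx1, Nsun2, Alyref, Nsun4, Nsun5, Nsun6, Nsun3, Trdmt1 and Nsun7 in normoxic cells, where no neighbours in this order overlapped. In hypoxia-treated cells Nsun6 and Nsun4 exchanged places. There, Nsun6 and Nsun5 overlapped and so did Nsun5 and Nsun4, so that the order of these neighbours is not resolved beyond their spread.

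The makeup of the mRNA of the 7 enzymes followed from these levels. It leaves out Nop2, a further m5C methyltransferase, at 72.5 ± 1.09 TPM in normoxic and 34.6 ± 2.9 TPM in hypoxia-treated cells. The sums and shares therefore hold for these 7 genes only and would differ with Nop2 included. Nop2 was lower in hypoxia-treated cells while the sum of the 7 genes was higher. A larger sum of the 7 genes thus does not show more m5C methyltransferase mRNA in total. The 7 enzymes summed to 122.5 ± 1.31 TPM in normoxic and 156.8 ± 1.55 TPM in hypoxia-treated cells (SD, n = 3 each). Without Nsun2, the other 6 summed to 50.1 ± 0.911 and 40.8 ± 2.45 TPM. Nsun2 therefore held a larger share of the sum in every hypoxia-treated library, with 60.1%, 59.4% and 57.9% in normoxic and 72.1%, 75.3% and 74.5% in hypoxia-treated libraries. The share of Nsun4 was 16.3 ± 1.56% in normoxic and 6.87 ± 0.191% in hypoxia-treated cells. The share of Nsun6 was 6.90 ± 0.633% and 7.83 ± 1.05% and overlapped between the groups, since the sum of the 7 genes was larger in hypoxia-treated cells too. Nsun5 had 10.8 ± 0.734% and 7.75 ± 0.851%, Nsun3 4.47 ± 0.0813% and 2.55 ± 0.417%, and Trdmt1 1.77 ± 0.299% and 0.821 ± 0.11% (SD, n = 3 each).

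**Figure D3:**
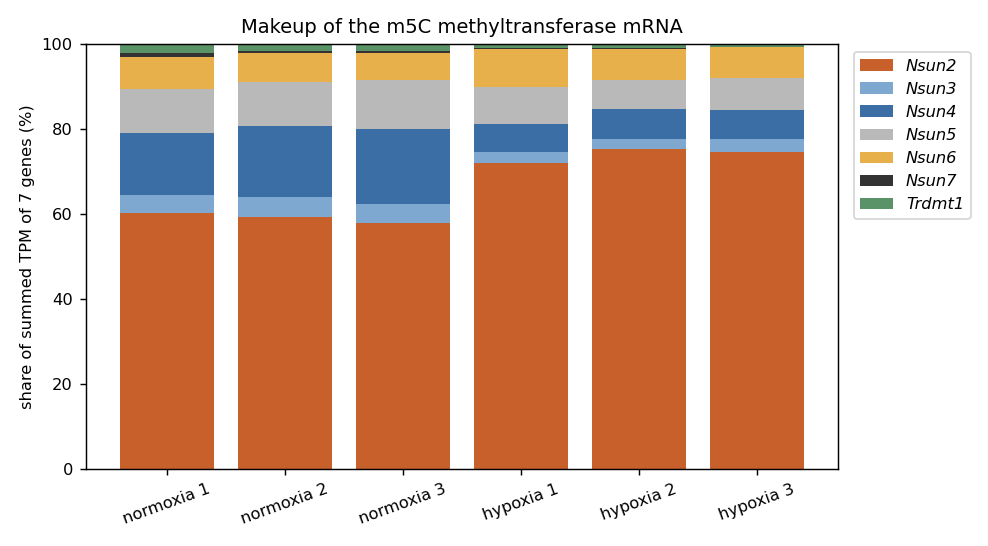
Share of each enzyme in the summed TPM of the 7 m5C methyltransferase genes examined, which do not include Nop2 (vertical axis, %), with 1 stacked bar per library. Nsun2 takes 57.9% to 60.1% of the sum in normoxic and 72.1% to 75.3% in hypoxia-treated libraries, and the Nsun4 segment is the one that narrows most.

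Ratios of 2 genes within a library do not depend on a single scaling factor for the library. They can change with quantile normalization, which does not use such a factor. They were chosen after the levels had been seen, from genes whose levels differed in opposite directions or by unequal amounts, and are a description with no test. Nsun2 over Nsun4 was 4.11, 3.55 and 3.28 in normoxic and 10.8, 10.7 and 10.8 in hypoxia-treated libraries. For the tRNA enzymes that moved in opposite directions, Nsun6 over Trdmt1 was 3.93 ± 0.369 and 9.59 ± 1.07. Mterf4 over Nsun4, genes of one complex, was 0.743 ± 0.071 and 1.46 ± 0.182 (SD, n = 3 each).

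The other genes of m5C metabolism, 13 in all, comprised the remaining family member Nop2, the partner Mterf4, enzymes that oxidize the methyl group and further reported m5C binders. Of 12 tested, 5 were lower, 2 higher and 5 not called, against 36.1% lower and 17.9% higher among all tested genes. The median log2 fold change was −0.17, against −0.13 over all tested genes, so that the list as a whole lay near the background. Nop2, which methylates the large cytosolic rRNA in the nucleolus, measured 72.7, 71.3 and 73.5 TPM in normoxic and 31.8, 34.3 and 37.6 TPM in hypoxia-treated libraries. Its log2 fold change was −1.05 ± 0.067 (SE; adjusted p = 4.06e-05, limma), the lowest value of the tested family members, and Nsun2 over Nop2 went from 0.999 ± 0.0383 to 3.37 ± 0.199 (SD, n = 3 each), a ratio likewise chosen after the levels had been seen. Tet2, a dioxygenase that needs O2 and oxidizes m5C in DNA and RNA, was higher, with 5.76, 5.09 and 5.43 TPM in normoxic and 17.6, 17.7 and 17.9 TPM in hypoxia-treated libraries (log2 fold change 1.54 ± 0.074, SE; adjusted p = 1.39e-05, limma). The other oxidases were not called (Tet3 and Alkbh1) or not tested (Tet1).

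Among the binders, the mRNA-binding protein gene Serbp1 fell from 217.0 ± 2.78 to 180.5 ± 4.51 TPM (SD, n = 3 each; adjusted p = 0.0011, limma). The splicing factor gene Srsf2 fell from 331.7 ± 25.1 to 201.9 ± 35.3 TPM (SD, n = 3 each; adjusted p = 0.00235, limma). Ythdf2 and Fmr1 were also called lower. The Fmr1 call was near the threshold (adjusted p = 0.0362, limma). Fmr1 measured 83.1, 69.0 and 72.0 TPM in normoxic and 34.7, 53.9 and 60.7 TPM in hypoxia-treated libraries, with hypoxia replicate 1 the lowest. Of the paralogs of the readers, Ybx3 and Alyref2 were not called. Ybx2, a germ cell Y-box protein, was called higher at very low levels, 0.594 ± 0.285 and 1.503 ± 0.327 TPM (SD, n = 3 each; adjusted p = 0.0274, limma), and the adjusted p was 0.0627 to 0.091 without normoxia replicate 2 or 3 or without hypoxia replicate 2 or 3. It passed the filter on low values only through the hypoxia-treated group, where it is high, so that its call carries no weight in the count above, and Tet2 is the other higher call of the list.

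ALYREF works in the TREX complex, which couples splicing to export of mRNA. Of 14 TREX and export genes, all tested, 8 were lower, 2 higher and 4 not called, against 36.1% lower and 17.9% higher among all tested genes. The median log2 fold change was −0.37, against −0.13 over all tested genes. Chtop, which like ALYREF hands mRNA to the export receptor, fell from 104.9 ± 3.54 to 65.3 ± 7.64 TPM (SD, n = 3 each; adjusted p = 0.000637, limma). The THO subunits Thoc1 (26.2 to 19.3 TPM, adjusted p = 0.00103) and Thoc3 (42.4 to 31.0 TPM, adjusted p = 0.00157) were lower as well. The remaining calls were Thoc5, the helicases Ddx39b and Ddx39a, and the receptor pair Nxf1 and Nxt1. The Ddx39a call was near the threshold (adjusted p = 0.0413, limma). Ddx39a measured 110.5, 94.4 and 92.5 TPM in normoxic and 24.4, 62.6 and 66.7 TPM in hypoxia-treated libraries, with hypoxia replicate 1 far below the others. The adaptor Poldip3 was slightly higher (66.1 to 74.2 TPM, adjusted p = 0.0146, limma). Zc3h11a was called at 82.5 and 91.2 TPM (adjusted p = 0.0392, limma), a call lost in 9 of 14 alternatives, with an adjusted p of 0.0501 to 0.112 without any single library other than hypoxia replicate 2.

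All these methyltransferases draw on SAM. A list of 8 genes was drawn up for its synthesis and for clearance of its product. It took in Ahcyl1 and Ahcyl2, relatives of Ahcy, neither of which was called. Whether Ahcyl1 and Ahcyl2 act in that clearance was not tested. Of the 8 genes, 7 were tested, 3 were lower, 0 higher and 4 not called, against 36.1% lower and 17.9% higher among all tested genes. The median log2 fold change was −0.11, near the −0.13 of all tested genes. At an unadjusted p under 0.05 the count of higher genes was also 0. Mat2a, the SAM synthetase of most tissues, measured 148.6, 146.3 and 147.1 TPM in normoxic and 45.6, 49.5 and 53.2 TPM in hypoxia-treated libraries. Its log2 fold change of −1.56 ± 0.061 (SE; adjusted p = 6.11e-06, limma) was the largest of the list, whose other calls were the methionine synthase gene Mtr (13.7 to 8.97 TPM, adjusted p = 0.000888) and Ahcy (157.6 to 124.1 TPM, adjusted p = 0.000939), which removes S-adenosylhomocysteine. The regulatory subunit gene Mat2b was not called (log2 fold change −0.01, 95% interval from −0.21 to 0.19), and Mat1a, the synthetase of liver, was listed at 0 in all 6 libraries.

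**Figure D4:**
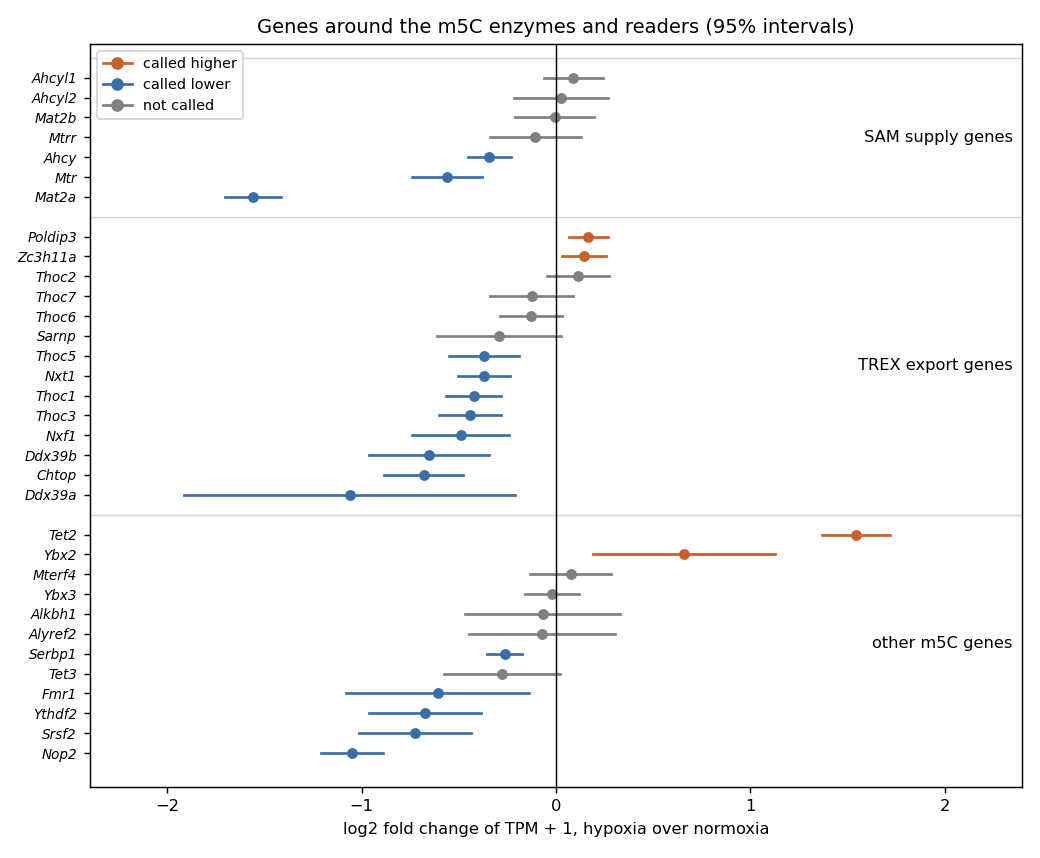
Log2 fold change of TPM + 1 (horizontal axis, hypoxia over normoxia) with 95% intervals from limma for the tested genes of the 3 surrounding lists. Mat2a at −1.56 and Nop2 at −1.05 are lower and Tet2 at 1.54 is higher, while Poldip3 and Zc3h11a are the 2 TREX export genes on the right of 0 that were called.

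Substrates of the mitochondrial enzymes may be poorly captured in poly(A) libraries, so that their values may not follow their amounts in the cell. No test of them was planned, and the fit of all genes is given beside the values. The rRNA modified by NSUN4, mt-Rnr1, stood at 1134, 1241 and 1227 TPM in normoxic and 923.1, 997.5 and 1017 TPM in hypoxia-treated libraries. In that fit mt-Rnr1 was called lower (log2 fold change −0.29 ± 0.053, SE; adjusted p = 0.0033, limma). The tRNA modified by NSUN3, mt-Tm, ranged from 56.8 to 321.3 TPM in normoxic and from 97.9 to 556.6 TPM in hypoxia-treated libraries. It was not called (adjusted p = 0.614, limma). Vaultrc5, a vault RNA of the kind NSUN2 modifies, was listed at 0 in all libraries. Modification itself was not measured in these libraries.

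For the member with the smallest adjusted p in each direction, the 3 protein-coding genes with the most similar profile were found by Euclidean distance over the 6 centred log2(TPM + 1) values. Nearest to Nsun2 were Spg21 (distance 0.0503), Fau (0.0532) and Rab6a (0.0702). Nearest to Nsun4 were 9130401M01Rik (distance 0.0649), Cd14 (0.084) and Cd274 (0.087).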

How the data were processed

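Poly(A) RNA was sequenced in pairs on an Illumina NovaSeq. Per the labels and the paper, the authors trimmed the reads (Cutadapt), mapped them to the mm10 genome (HISAT2) and assembled and quantified transcripts (StringTie). Versions and the annotation release are not given in the sources used here. The deposited tables give TPM, FPKM (scaled for length and aligned fragments) and coverage (mean read depth, a signal not scaled for library size) per gene. The authors' assembled loci sum to 1000000 TPM and the annotated genes to 948283.6 to 981417.5 TPM. This differs from an ordinary TPM table, and values were used without rescaling.

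Of 43432 gene IDs, 42462 matched GENCODE mouse release 21, and values were summed by symbol. Genes with a mean of at least 1 TPM were tested with limma 3.58.1 (R 4.3.3, empirical Bayes with a variance trend, 2-sided) on log2(TPM + 1). A check on simulated data changed few genes, as many up as down. It cannot show how well calls hold in these data, where many genes were called and more were lower than higher. The authors tested counts with edgeR, and counts were not used here. Coverage and FPKM gave aligned bases as the depth. The number of libraries, 3 per group, limits the precision.

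Members, lists and the naming rule (all 9 members, up to 3 calls per direction and list, and Nop2, Mterf4, Alkbh1, mt-Rnr1, mt-Tm and Vaultrc5) were chosen with earlier results of these data known. Other list members are named only to complete a count or to give its limits. Alternatives changed the pseudocount, the filter, the unit, the scaling, the variance model, the gene set, the replicate block and the libraries. Summing assembled loci was added after seeing the data.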

Additional observations from a re-analysis of the deposited data

How the results depend on the processing

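The number of m5C genes called lower was 1 in place of 3 after median-ratio scaling, quantile normalization and with a replicate block, and 1 to 3 when single libraries were left out. It was 1, with Nsun4 alone, without any library except hypoxia replicate 3, where Nsun3 and Alyref were called lower too. The number called higher stayed within 2 to 3. The median log2 fold change of the m5C genes moved to −0.041 after median-ratio scaling. Among the other m5C genes the count of higher calls was 1 in place of 2 with a replicate block, and 1 to 2 when single libraries were left out. After quantile normalization that count was 3. Among the TREX export genes the count of higher calls was 1 in place of 2 with FPKM, no variance trend, a replicate block and protein-coding genes rescaled. It was 1 to 2 when single libraries were left out, and 3 after median-ratio scaling and after quantile normalization. For SAM supply genes it was 1 in place of 0 after median-ratio scaling. The estimates that changed sign were those of genes not called. Nsun5 was at 0.02 and 0.09 and Alkbh1 at 0.06 and 0.14 after median-ratio scaling and quantile normalization. Ybx1 was at −0.03 with FPKM, −0.16 after quantile normalization and −0.01 with protein-coding genes rescaled. Without single libraries Ybx1 ranged from −0.03 to 0.08 and Alkbh1 from −0.22 to 0.04. Mterf4 was called higher after quantile normalization (0.28, adjusted p = 0.0449). The causes were not tested.

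The share of higher calls among all calls was 33.1% and became 49.9% after median-ratio scaling and 49.6% after quantile normalization, which moved the median of all tested genes from −0.13 to 0.0014 and 0.0025. Same-numbered libraries showed little shared deviation (correlations 0.0259, 0.0333 and 0.0109). Such correlations cannot show whether the libraries were prepared in matched sets. With the replicate block the adjusted p was 0.0653 for Nsun3 and 0.0555 for Trdmt1. Summed assembled loci, possible for Nsun2 to Nsun6 and Trdmt1 only, changed no call. The mean read depth was 0.446 to 2.79 over Nsun7, 2.5 to 6.2 over Trdmt1 and 3.37 to 5.78 over Nsun3, and their counting errors could not be calculated.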
